A study of Mus musculus with 12 samples.

Results

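The 1100 domains described here were accessible in embryoid bodies (EBs), were in neither the list of day 2 progenitors nor that of the day 4 no Dox control, and overlapped a domain of at least 1 of the day 4 lists made after induction of Hoxc6, Hoxc9 or Hoxc10. They were chosen by these overlaps from 41797 EB domains at least 150 bp wide, out of 94875 EB domains in all, and they are called regained EB domains below because EBs and an induced line held them and the progenitors between did not. The word describes list membership only. Accessibility was measured by ATAC-seq, in which a transposase inserts adapters into open chromatin, and an accessible domain is an interval in which the authors' caller found enough reads.

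The series had 12 samples in 6 groups of 2. Mouse embryonic stem cells of the parental line Ainv15(iCre) were taken as EBs before patterning and as day 2 progenitors after 2 days of retinoic acid (RA, 1 µM) and the Hedgehog agonist SAG (0.5 µM). The iHoxc6, iHoxc9 and iHoxc10 lines each carried a single copy of a Flag-tagged Hox transgene at the Hprt locus and received doxycycline (Dox, 3 µg/mL) with RA and SAG for the last 48 h before collection at day 4. The no Dox control was the iHoxc6 line at day 4 of RA and SAG without Dox. Each group had 1 list made from both samples, with start and end positions and no height, so no value below has a replicate error. The lists held between 56232 domains in iHoxc10 and 94875 in EBs, and read depth is unknown. Cell line cannot be told apart from stage when EBs or progenitors are set beside day 4 lists, nor from the induced Hox protein among the 3 lines. The deposited no Dox list carries another day in its name than the day 4 of its samples' labels, and the label was used here. It also has another column layout than the other lists, and any difference in how it was made cannot be told apart from the absence of Dox.

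EBs at this stage are aggregates of cells leaving pluripotency, in which factors such as OCT4, SOX2 and ESRRB keep distal enhancers open. RA and SAG then turn these cells into ventral spinal cord progenitors and motor neurons, and many enhancers of the earlier state close. Hox proteins are homeodomain transcription factors that give neurons their position along the body axis, HOXC6 at brachial, HOXC9 at thoracic and HOXC10 at lumbar levels. Central Hox proteins such as HOXC6 prefer the core TAAT, and posterior Hox proteins such as HOXC9 and HOXC10 prefer ATAAA, which reads TTTAT on the other strand.

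As a check of the label, the promoters (transcription start site, TSS, ± 1 kb) of 11 pluripotency genes were compared between lists. In EBs, 8 of the 11 had an accessible domain, against 6 in progenitors, 4 in each of the no Dox, iHoxc6 and iHoxc10 lists and 3 in the iHoxc9 list. The promoters of Pou5f1, which encodes OCT4, and of Nanog had a domain in EBs and in no other list. Those of Sox2, Klf4 and Tfcp2l1 had a domain in every list, and those of Esrrb, Dppa3 and Dppa5a in none. Only 1 TSS per gene was used, at the start of its annotated record, and other start sites were not examined. All 5 neural progenitor promoters checked (Olig2, Nkx6-1, Pax6, Sox1 and Irx3) had a domain in EBs too, so promoter domains at these genes did not set EBs apart from the later lists. Of the other promoters checked, 5 of 6 motor neuron, 4 of 4 mesoderm, 3 of 4 primitive endoderm and 2 of 3 neural crest ones had a domain in EBs. No regained EB domain lay at a pluripotency promoter of the list.

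The sequences below show regained EB domains outside annotated exons in which at least 1 line covered much of the EB domain, though others could cover little. A Sox2-linked domain in which the only line covered little is shown with them. All these domains were chosen after their values were seen. All are from the + strand of GRCm38 (mm10), from 5′ to 3′, and are cut to 300 bases where the domain is wider. In the first set, capitals mark the bases that lay inside a domain of every line that held the region. The Foxp1 domain (chr6:99485315-99485550) lies in an intron of Foxp1, which encodes a transcription factor of limb-innervating motor neurons, and was held by all 3 lines. The Rgs9 domain (chr11:109269934-109270233 of a 325 bp domain) lies in an intron of Rgs9, a regulator of G protein signalling, and the Slc7a13 domain (chr4:19766754-19767053 of a 632 bp domain) lies between genes in a masked repeat, both held by all 3 lines. The Sox2 domain (chr3:34576210-34576444) lies 74.1 kb upstream of Sox2, which encodes a pluripotency and neural progenitor factor, and was held by iHoxc9 alone.
Foxp1: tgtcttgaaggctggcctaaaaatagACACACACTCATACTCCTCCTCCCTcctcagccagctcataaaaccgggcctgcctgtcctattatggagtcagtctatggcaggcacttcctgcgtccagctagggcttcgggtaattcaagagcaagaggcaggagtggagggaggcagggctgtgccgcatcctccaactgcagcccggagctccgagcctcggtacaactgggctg
Rgs9: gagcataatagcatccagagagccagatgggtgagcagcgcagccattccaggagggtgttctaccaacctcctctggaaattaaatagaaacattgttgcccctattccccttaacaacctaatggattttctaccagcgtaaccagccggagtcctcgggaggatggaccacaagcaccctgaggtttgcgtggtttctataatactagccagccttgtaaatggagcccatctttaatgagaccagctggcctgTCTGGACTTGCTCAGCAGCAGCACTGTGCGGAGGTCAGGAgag
Slc7a13: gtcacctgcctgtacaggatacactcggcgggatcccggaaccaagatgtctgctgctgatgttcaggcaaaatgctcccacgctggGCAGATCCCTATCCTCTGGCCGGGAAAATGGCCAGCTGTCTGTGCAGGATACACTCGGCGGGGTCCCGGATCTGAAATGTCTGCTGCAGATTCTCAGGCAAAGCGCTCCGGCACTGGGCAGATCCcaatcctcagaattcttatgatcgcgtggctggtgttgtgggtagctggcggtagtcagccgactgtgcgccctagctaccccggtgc
Sox2: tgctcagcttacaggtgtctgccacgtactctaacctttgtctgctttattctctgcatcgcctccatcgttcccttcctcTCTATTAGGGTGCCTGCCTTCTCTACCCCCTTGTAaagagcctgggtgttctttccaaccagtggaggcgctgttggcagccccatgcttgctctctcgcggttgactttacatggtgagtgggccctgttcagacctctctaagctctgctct

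In the next set, capitals mark matches to TAAT or ATAAA on either strand. The Mmp20 domain (chr9:7633958-7634210, intron) was held by iHoxc6 alone, which covered all 253 bp, and had 1 TAAT. The Dmac1 domain (chr4:76144265-76144564, in an intron of Ptprd) and the Isx domain (chr8:74372243-74372542, intergenic) were held by iHoxc9 alone, which covered 323 of 344 bp and 312 of 312 bp. The printed bases had 5 TAAT matches in the Dmac1 domain and 2 ATAAA matches in the Isx domain. Dmac1 and Isx had the nearest TSS, 866 kb and 501 kb away. The H2-M10.5 domain (chr17:36764288-36764575, intergenic) was held by iHoxc10 alone, which covered 237 of 288 bp, and had 1 TAAT. The Pcdh10 domain (chr3:44604310-44604468, intergenic, 774 kb from the TSS) was held by iHoxc6 over all 159 bp and by iHoxc9 over 146 bp, and had 1 TAAT and 2 ATAAA.
Mmp20: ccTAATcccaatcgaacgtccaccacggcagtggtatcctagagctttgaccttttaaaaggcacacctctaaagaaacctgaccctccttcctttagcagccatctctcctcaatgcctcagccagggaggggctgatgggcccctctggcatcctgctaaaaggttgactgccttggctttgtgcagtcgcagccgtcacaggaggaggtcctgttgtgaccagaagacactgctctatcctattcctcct
Dmac1: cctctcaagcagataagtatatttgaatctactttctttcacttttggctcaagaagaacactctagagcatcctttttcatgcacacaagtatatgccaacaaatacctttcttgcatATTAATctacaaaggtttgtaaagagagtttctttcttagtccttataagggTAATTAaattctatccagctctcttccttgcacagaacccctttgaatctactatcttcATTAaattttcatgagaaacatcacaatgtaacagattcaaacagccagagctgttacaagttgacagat
Isx: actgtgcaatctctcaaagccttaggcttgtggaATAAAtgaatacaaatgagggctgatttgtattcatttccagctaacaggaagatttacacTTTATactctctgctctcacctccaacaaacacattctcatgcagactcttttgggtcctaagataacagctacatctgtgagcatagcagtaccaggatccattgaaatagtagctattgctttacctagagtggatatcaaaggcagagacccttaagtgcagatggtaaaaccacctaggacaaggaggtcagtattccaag
H2-M10.5: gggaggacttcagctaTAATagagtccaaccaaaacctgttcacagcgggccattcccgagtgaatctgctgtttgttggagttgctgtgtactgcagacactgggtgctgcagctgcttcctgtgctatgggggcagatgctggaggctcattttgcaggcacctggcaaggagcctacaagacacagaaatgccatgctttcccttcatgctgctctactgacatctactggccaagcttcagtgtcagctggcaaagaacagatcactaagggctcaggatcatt
Pcdh10: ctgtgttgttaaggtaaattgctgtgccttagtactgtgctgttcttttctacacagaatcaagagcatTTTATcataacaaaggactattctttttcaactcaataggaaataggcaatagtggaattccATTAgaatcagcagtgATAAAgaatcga

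Most regained EB domains were held by 1 line. Day 2 and no Dox both lacked 12078 EB domains, and 1100 of these (9.11%) were in at least 1 induced list. The iHoxc6 list held 730 (6.04%), iHoxc9 held 399 (3.3%) and iHoxc10 held 248 (2.05%). For background, these lists held 63.3%, 56.4% and 55.1% of all 41797 EB domains of this width. The iHoxc6 list alone held 530 regained domains, iHoxc9 alone 220 and iHoxc10 alone 116. Both iHoxc6 and iHoxc9 held 102, both iHoxc6 and iHoxc10 held 55, both iHoxc9 and iHoxc10 held 34, and all 3 lines held 43. The lists themselves differed in length, with 91181 domains for iHoxc6, 63504 for iHoxc9 and 56232 for iHoxc10. With each list cut to its 56232 widest domains, 694 regained domains were held by iHoxc6, 654 by iHoxc9, 554 by iHoxc10 and 118 by all 3 lines. This also shortened the day 2 and no Dox lists that set absence, and the total rose to 1390. The iHoxc10 list was not shortened and its count still rose from 248, so these counts do not show the part of the induced lists' length alone.

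The same count could be made for the no Dox list, since 13627 EB domains were absent from day 2 whatever no Dox held. The no Dox list held 1549 of them (11.4%) and the iHoxc6 list, from the same cell line with Dox, held 1543 (11.3%). The iHoxc9 list held 930 (6.82%) and iHoxc10 held 722 (5.3%). No Dox alone held 554, against 530 for iHoxc6 alone, and 253 were held by no Dox and all 3 induced lists. EB domains absent from day 2 were thus listed again at day 4 about as often without Dox as with Dox in the iHoxc6 line, and these 554 domains serve below as a second comparator chosen after the data were seen.

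**Figure D1:**
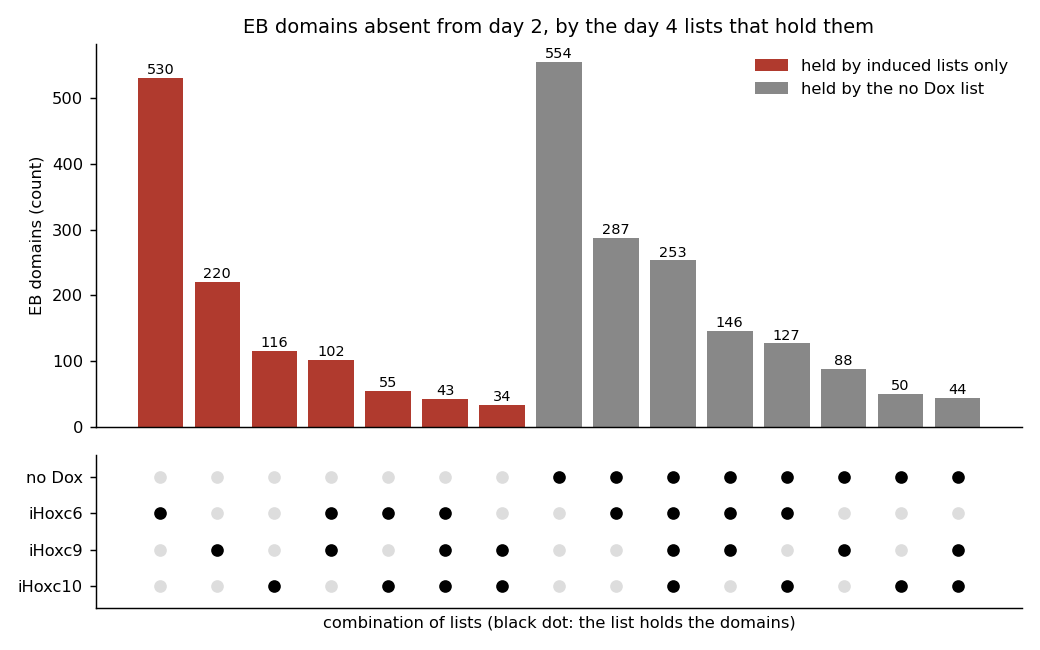
Number of EB domains at least 150 bp wide and absent from day 2 progenitors (vertical axis, count) for each combination of day 4 lists that held them (black dots), with the regained EB domains in red and domains held by no Dox in grey. The 2 tallest bars are no Dox alone with 554 domains and iHoxc6 alone with 530.

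Where several lines held a regained domain, their domains usually met on the same bases. Shared bases were counted inside the EB domain and not for other EB domains, so no background share stands beside them. Of 145 held by iHoxc6 and iHoxc9, 102 (70.3%, 95% Wilson interval 62.5 to 77.2) had at least 1 base inside domains of both, with a median of 37 shared bp. The share was 84.7% (76.3 to 90.5) of 98 for iHoxc6 and iHoxc10 and 72.7% (61.9 to 81.4) of 77 for iHoxc9 and iHoxc10. In 31 of the 43 domains held by all 3 lines, at least 1 base was common to all 3. These intervals, like all below, cover the counting of domains only. The share of regained domains that lines had in common is set in large part by the rule and is given as a description. The 145 held by both iHoxc6 and iHoxc9 were 19.9% of the iHoxc6 and 36.3% of the iHoxc9 regained domains, while in the 29719 EB domains that overlapped day 2 or no Dox the shared ones were 87.6% of those held by iHoxc6 and 97.1% of those held by iHoxc9. All 3 lines held 70.4% of those 29719 domains and 3.91% of the regained domains.

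The induced domains on regained EB domains were narrow. The median width was 45 bp in iHoxc6, 45 bp in iHoxc9 and 63 bp in iHoxc10, against 518, 423 and 521 bp for the domains of the same lists on EB domains that overlapped day 2 or no Dox. Under 50 bp wide were 58.2% of those of iHoxc6, 57.6% of iHoxc9 and 35.9% of iHoxc10. No Dox domains on the 554 EB domains held by no Dox alone had a median width of 50 bp. The EB domains themselves had a median width of 269 bp (quartiles 199 and 365 bp), against 248 bp for the 10978 EB domains absent from day 2 and no Dox that no induced list held, called not regained below.

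The line that covered most of a regained domain covered a median of 18.2% of it (quartiles 10.9 and 35.0%). The median was 16.1% in the 866 domains held by 1 line, 30.8% in the 191 held by 2 and 51.4% in the 43 held by all 3. In 196 domains (17.8%) a line covered at least 50% of the EB domain, and in 27 it covered all of it. The share covered to at least 50% was 12.4% among domains of 1 line, 34.0% of 2 and 55.8% of 3, and the highest of several lines was taken where several held the domain. The middle of the covered part lay at a median of 0.51 (iHoxc6), 0.51 (iHoxc9) and 0.50 (iHoxc10) of the way from the centre of the EB domain to its edge.

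**Figure D2:**
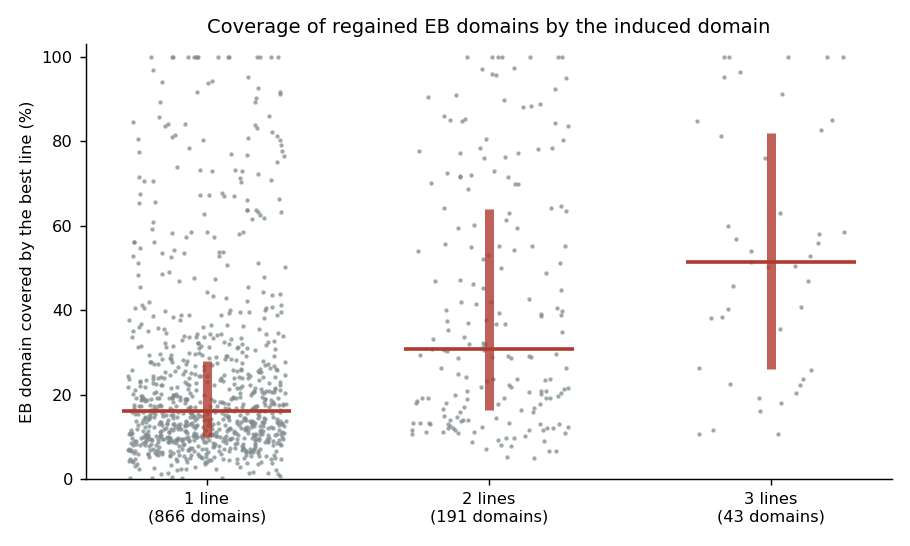
Share of each regained EB domain covered by the line that covered most of it (vertical axis, percent), grouped by the number of lines that held it. Each point is an EB domain, the red line is the median (16.1, 30.8 and 51.4%) and the red bar spans the quartiles.

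Close to the limits of the rule, 74 regained domains were within 10 bp above the minimum width, and 117 EB domains within 10 bp below it met the same overlaps. In 15 regained domains the best line covered under 10 bp, and 10 EB domains held by an induced line were left out through an overlap of under 10 bp with day 2 or no Dox. A day 2 or no Dox domain lay within 500 bp of 221 regained domains (20.1%) and of 824 not regained domains (7.51%). The regained share was 26.4% where such a domain lay nearer than 200 bp and 6.46% where the nearest was 10 kb away or more (intervals 22.9 to 30.3 and 5.78 to 7.22%). Part of the set therefore adjoined domains of the control lists.

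Among the domains held by all 3 lines, the widest lay 9.44 kb from the TSS of Otx1, which encodes a forebrain homeodomain factor (chr11:21993077-21993840, 764 bp, 76.0% GC). There iHoxc6 covered 43 bp, iHoxc9 138 bp and iHoxc10 23 bp. The next widest lay in an exon of Nlrp6, an inflammasome sensor (chr7:140922438-140923100, 663 bp), where iHoxc6 covered 341 bp, iHoxc9 48 bp and iHoxc10 242 bp, and a no Dox domain lay 143 bp away. Near Gm10037 (chr13:67844391-67845039, 649 bp) the lines covered 59, 69 and 24 bp, and domains of both day 2 and no Dox lay within 49 bp of its edges.

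The lines were closer to each other at the Slc7a13 domain, 51.8 kb upstream of a gene for an amino acid transporter, printed above in part. The iHoxc6 list covered 337 bp, iHoxc9 360 bp and iHoxc10 235 bp of its 632 bp (chr4:19766629-19767260), and 125 bp were common to all 3. The nearest day 2 domain was 54241 bp away and the nearest no Dox domain 33063 bp. Of its bases, 91.8% were masked as repeats, and the part of the repeat in the calls was not tested. Near Accsl (chr2:93891281-93891839, 559 bp) the lines covered 241, 61 and 263 bp, with 0.894% of bases masked.

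Other domains of all 3 lines had few masked bases. An intron of Rtn4rl1, which encodes a Nogo receptor-like protein (chr11:75231788-75232063, 276 bp), was covered by 160 bp in iHoxc6, 138 bp in iHoxc9 and 121 bp in iHoxc10, with day 2 and no Dox domains 16848 and 17751 bp away. A domain near Ly6l (chr15:75470052-75470262, 211 bp) was covered by 105, 118 and 115 bp, with a no Dox domain 960 bp away. The Rgs9 intron (chr11:109269911-109270235, 325 bp) was covered by 45 bp in iHoxc6, 320 bp in iHoxc9 and all 325 bp in iHoxc10. A 308 bp intronic domain nearest to Fam210a was the 1 domain that each of the 3 lines covered by at least 50%, with 207, 232 and 308 bp. These 4 were named after their values were seen.

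The Foxp1 gene had 2 regained domains. In the domain printed above, iHoxc6 covered 215 of 236 bp, iHoxc9 186 bp and iHoxc10 25 bp. A day 2 domain lay 100 bp away and a no Dox domain 438 bp away. The other (chr6:98949939-98950188, 250 bp) lies in another intronic stretch, 573 kb from the nearest TSS, and iHoxc6 alone covered 134 bp. Near Ebf3, which encodes a factor of neuronal differentiation, an 860 bp domain of 72.7% GC (chr7:137322263-137323122) was covered by 405 bp in iHoxc9 and 38 bp in iHoxc10. It lay 474 bp from a day 2 domain and 514 bp from a no Dox domain.

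**Figure D3:**
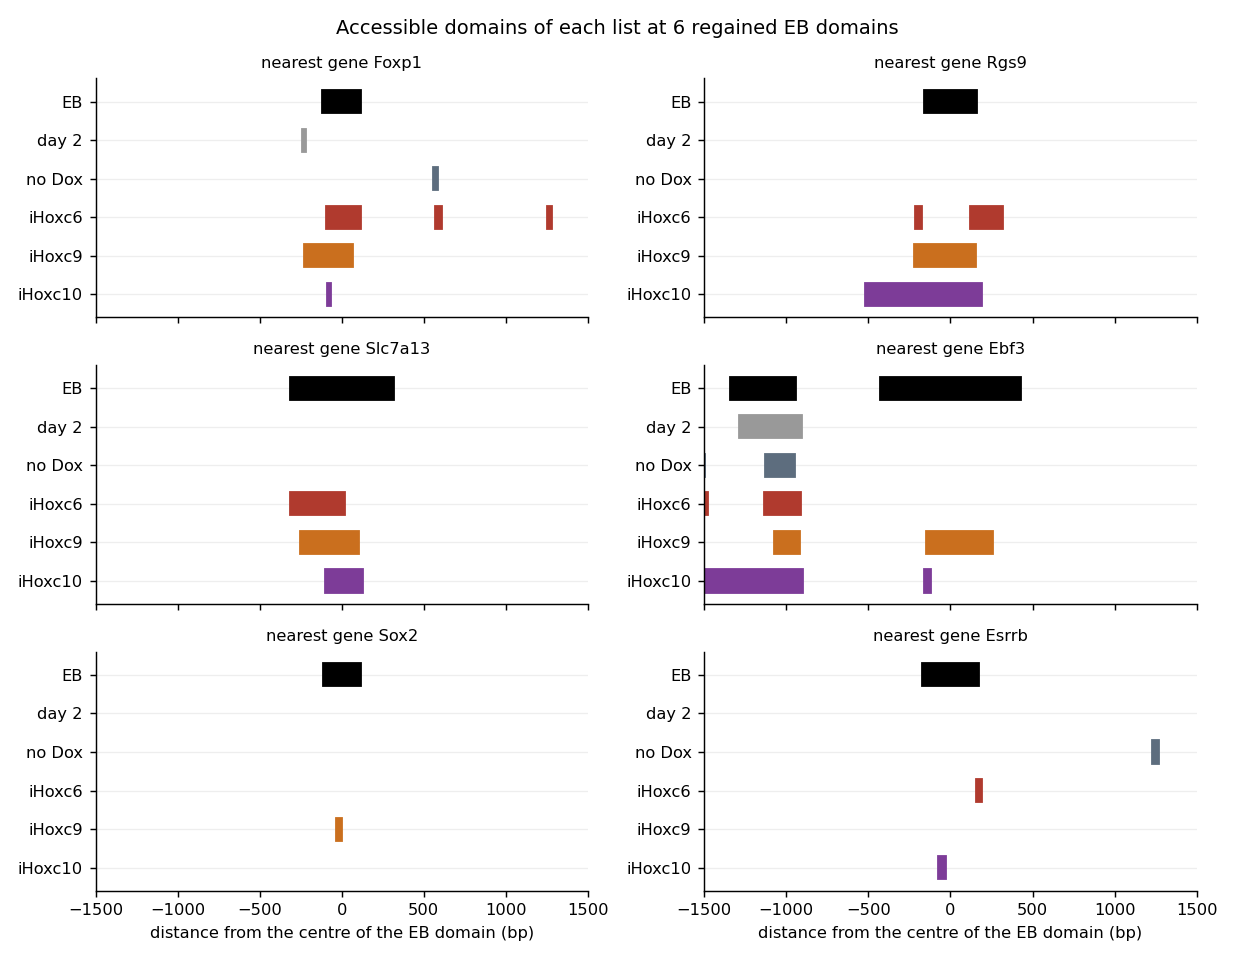
Accessible domains of the 6 lists (rows) around the centre of the EB domain (horizontal axis, bp) at 6 regained EB domains. Day 2 and no Dox have no bar on the central EB domain, the bars of the induced lines are wide near Rgs9 and Slc7a13, and near Sox2 and Esrrb they are 35 bp (iHoxc9), 40 bp (iHoxc6) and 46 bp (iHoxc10) wide.

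For each class, the domain with the most covered bp, counted in the line that covered least, was picked. Narrower domains in some classes were covered to a higher share, such as the H2-M10.5 and Isx domains above. The iHoxc6 list covered all 344 bp of a domain 142 kb from Gm4951, and iHoxc9 covered 323 of 344 bp of the domain 866 kb from Dmac1. The iHoxc10 list covered 242 of 380 bp in an intron of Mtcl1, which encodes a microtubule crosslinking protein (chr17:66446406-66446785), 229 bp from a no Dox domain. For pairs of lines, iHoxc6 and iHoxc9 covered 212 and 257 of 328 bp 83.7 kb from Grem1, a BMP antagonist, in an intron of Fmn1 (chr2:113674735-113675062). The iHoxc6 and iHoxc10 lists covered 192 and 198 of 478 bp nearest to N4bp1 (chr8:87152438-87152915, 267 kb from its TSS), 396 bp from a day 2 domain. In an intron of Nedd4l, a ubiquitin ligase, iHoxc9 covered all 283 bp and iHoxc10 250 bp, with no day 2 or no Dox domain within 20596 bp.

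In the widest regained domains of single lines the induced domains took up under 10% of the EB domain. The widest of all, 1631 bp, lay 31.1 kb from Psmd12, a proteasome subunit gene (chr11:107509753-107511383), and iHoxc9 covered 24 bp. In an intron of Pde4d, a cAMP phosphodiesterase gene, iHoxc9 covered 47 of 1478 bp (nearest TSS Rab3c, chr13:109632145-109633622), and 203 kb from Cntn5 it covered 38 of 1013 bp. The iHoxc6 list covered 46 of 1257 bp 84.2 kb from Atp5j, 69 of 1162 bp 167 kb from 3100002H09Rik and 38 of 927 bp 29.7 kb from Oscar. The iHoxc10 list covered 59 of 907 bp near Gm49353, 69 of 716 bp near Myl10 and 65 of 679 bp at the promoter of Aqp6, a water channel gene.

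Among the 3 widest domains of each pair of lines, coverage varied more. The Ebf3 domain above, the widest of iHoxc9 and iHoxc10, had 405 of 860 bp in iHoxc9. At the promoter of Lhcgr, the luteinizing hormone receptor gene (chr17:88791430-88792324, 895 bp), iHoxc6 covered 256 bp and iHoxc9 41 bp. They covered 127 and 42 of 744 bp 231 kb from Pcmtd1 and 161 and 37 of 679 bp in Gm21411. The iHoxc6 and iHoxc10 lists covered 62 and 133 of 895 bp near Zfp281, a regulator of pluripotency, 58 and 44 of 856 bp in an intron of Sptb and 81 and 46 of 834 bp at the promoter of H2-T23. The iHoxc9 and iHoxc10 lists covered 42 and 38 of 581 bp in an intron of Arrb1 and 63 and 57 of 592 bp near Fzd2, a Wnt receptor gene.

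Genes of the pluripotent state held a share of regained domains near the background. Of 153 EB domains nearest to 30 pluripotency genes, 72 were absent from day 2 and no Dox and 6 were regained (8.33%, beside 9.11% of all). Near Sox2, iHoxc9 covered 35 of 235 bp in the domain printed above and iHoxc10 8 of 462 bp in another on the other side of the gene (chr3:34671137-34671598). In an intron of Esrrb, an orphan nuclear receptor of naive cells, iHoxc6 covered 21 bp and iHoxc10 46 bp of 347 bp (chr12:86383806-86384152), on different bases. Near Tet2, a 5-methylcytosine dioxygenase gene, iHoxc6 covered 84 of 179 bp, nearest to Klf5 27 of 317 bp and near Lefty1, a Nodal antagonist gene, 33 of 171 bp. None of the 6 was covered to 50%.

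Near 12 primed epiblast genes, 2 of 35 absent EB domains were regained (5.71%, beside 9.11% of all). In an intron of Otx2, a homeodomain factor of the epiblast and forebrain, iHoxc6 covered 68 of 721 bp (chr14:48665974-48666694). The other lay 77.0 kb from Foxa2, a factor of endoderm and floor plate, where iHoxc6 covered 88 bp and iHoxc9 98 bp of 160 bp (chr2:148123913-148124072). Foxa2 is on 3 of the lists, so this domain counts in each. In the other early lists, to be read against the same 9.11%, 1 of 17 near mesoderm genes was regained (Hand2, iHoxc6, 42 of 333 bp), 1 of 19 near endoderm genes (the Foxa2 domain), 0 of 7 near trophoblast genes and 1 of 10 near genes of the 2-cell stage and germline (Prdm1, iHoxc6, 42 of 184 bp).

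Near 26 motor neuron genes, 6 of 39 absent EB domains were regained (15.4%), beside the background of 9.11%. Beside those of Foxp1 and Ebf3, they were an intron of the LIM homeobox gene Lhx4 (iHoxc9 31 bp and iHoxc10 64 bp of 480 bp), a domain 62.4 kb from the proneural gene Neurog2 (iHoxc6 48 of 283 bp) and a domain near Nr2f2, an orphan receptor gene (iHoxc6 91 bp and iHoxc10 174 bp of 243 bp). A day 2 domain lay 26 bp from the Neurog2 domain and a no Dox domain 169 bp from that of Nr2f2. The nearest control domain was 3348 bp from the Lhx4 domain and 1594 bp from the 250 bp Foxp1 domain. The part of such adjoining domains in the 15.4% was not tested. Among Hox cofactor genes, a domain nearest to Meis3, in an exon of Slc8a2, was covered by 38 of 215 bp in iHoxc6.

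Near 20 ventral progenitor genes, 2 of 29 were regained (6.90%, beside 9.11% of all), the Foxa2 domain and a domain 13.6 kb from Shh, which encodes the ligand of the pathway that SAG activates (iHoxc10 49 of 197 bp). Near 22 interneuron genes, 2 of 18 were regained (11.1%, beside the same 9.11%), an intron of Lmx1b (iHoxc6 43 bp and iHoxc9 40 bp of 237 bp) and a domain near Pax2 (iHoxc6 40 of 367 bp). Near 13 neural crest and glial genes, 4 of 28 were regained (14.3%, beside the same 9.11%). Of these, 3 were nearest to Sox9, with 46 of 341 bp, 38 of 178 bp and 35 of 186 bp in iHoxc6 (the 178 bp domain, in an exon, also had 39 bp in iHoxc10), and 1 to Msx2, with 47 of 230 bp in iHoxc9. The 178 bp domain lay 234 bp from a day 2 and 214 bp from a no Dox domain. The Msx2 domain lay 151 bp from a day 2 and 82 bp from a no Dox domain. The other Sox9 domains lay 660 bp or more from both.

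Near 44 adhesion and axon guidance genes, 11 of 250 absent EB domains were regained (4.4%, beside 9.11% of all). Of these, 3 were nearest to the protocadherin gene Pcdh9, with 42, 29 and 76 bp covered in iHoxc6, and 1 was the Pcdh10 domain printed above. The Pcdh9 domains lay 1149, 807 and 517 kb from its TSS. Other lines also covered 2 of them, iHoxc9 51 bp of the first and iHoxc10 59 bp of the next. An intron of the ephrin receptor gene Epha5 had 44 bp in iHoxc6 and 47 bp in iHoxc9 of 421 bp, an intron of the teneurin gene Tenm2 27 of 653 bp in iHoxc6, and an intron of the cadherin gene Cdh11 47 of 380 bp in iHoxc6. Over the 14 lists together, 37 of 541 absent EB domains were regained (6.84%). Against the same 9.11%, none of 11 near caudal axial genes and none of 5 near the 39 Hox genes was regained, and no regained domain lay inside a Hox cluster with 5 kb added or within 100 kb of Hprt, where the transgenes sit.

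The regained domains were spread over 1019 nearest genes, of which 950 had 1 domain, 59 had 2, 8 had 3 and 2 had 4. The 4 nearest to Zfp386 lay 406 to 473 kb from its TSS on chromosome 12. The iHoxc10 list covered 34 of 369 bp in the first, iHoxc9 182 of 359 bp in the second, and iHoxc6 53 of 230 bp and 213 of 224 bp in the others. The 4 nearest to Scaf8 lay between 3006788 and 3020772 on chromosome 17, and 50.5 to 77.7% of their bases were masked. Nedd4l, Btbd9 and Isx each had 3. By chromosome, the regained share of absent EB domains ran from 6.67% on X to 11.0% on chromosome 17, and Y had 2 absent EB domains, of which none was regained.

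Regained EB domains lay at promoters more often than not regained ones. Of the 1100, 98 (8.91%, 95% interval 7.37 to 10.7) lay within 1 kb of a TSS, against 3.93% (3.58 to 4.31) of 10978 not regained, a difference of 4.98 percentage points (3.39 to 6.85). They were less often intergenic, 44.8 against 54.7% (difference −9.88 points, −12.9 to −6.79), and slightly more often in introns (39.2 against 35.9%) and exons (7.09 against 5.49%). Regained domains mostly made of masked repeats were 8.45% (6.95 to 10.2), against 22.0% (21.3 to 22.8) of not regained, a difference of −13.6 points (−15.3 to −11.6).

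EB domains held absent from day 2 but held by no Dox alone lay at promoters in 7.58% (5.66 to 10.1) and were mostly masked in 8.84% (6.75 to 11.5). The regained domains differed from them by 1.33 points at promoters (−1.62 to 3.98) and −0.39 points in masked domains (−3.44 to 2.36), and both intervals included 0. They were less often in exons, by −3.02 points (7.09 against 10.1%, −6.13 to −0.22). The 530 domains of iHoxc6 alone, from the same cell line, differed from them by −0.22 points at promoters (−3.39 to 2.97). EB domains that overlapped day 2 or no Dox lay at promoters in 41.9%, above all of these sets.

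**Figure D4:**
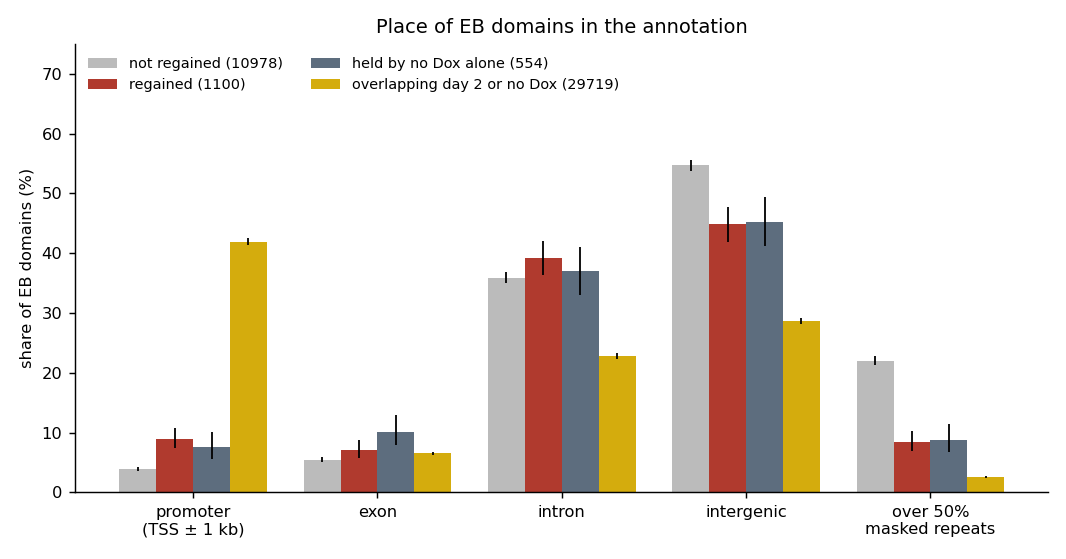
Share of EB domains (vertical axis, percent, with 95% Wilson intervals) at promoters, in exons, introns and between genes away from promoters, and with over 50% masked bases, for 4 sets of EB domains. Regained domains (red) stand beside domains held by no Dox alone (blue grey) and apart from not regained domains (light grey) in promoter and masked shares. The domains of no Dox alone are also part of those overlapping day 2 or no Dox (yellow).

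Base composition also differed between the sets. Median GC content was 53.3% in regained, 51.0% in not regained and 52.6% in no Dox alone domains, and 58.6% in EB domains that overlapped day 2 or no Dox. The ratio of observed to expected CpG had medians of 0.25, 0.18, 0.22 and 0.55 in the same order. Median distance to the nearest TSS was 32.0 kb in regained, 45.8 kb in not regained and 23.2 kb in no Dox alone domains. Among single lines, the 220 domains of iHoxc9 alone had the lowest median GC content (51.4%) and the longest median distance (40.1 kb), against 53.6% and 32.9 kb for iHoxc6 alone and 54.4% and 29.2 kb for iHoxc10 alone.

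Motifs were counted in the central 150 bp of every EB domain, on both strands, for 18 strings, some of which lie inside others. TAAT was in 42.2% (39.3 to 45.1) of regained domains and 45.5% (44.6 to 46.4) of not regained domains, and in 31.8% of all EB domains of this width. ATAAA was in 21.7% (19.4 to 24.3) against 22.2% (21.4 to 23.0), and in 15.5% of all. The TAAT difference was −3.30 points (−6.33 to −0.22, regained minus not regained), and the ATAAA difference of −0.49 points (−2.96 to 2.16) included 0. Neither difference lay above 0. With not regained domains weighted to the GC content of the regained ones, the differences were 2.65 points for TAAT (−0.39 to 5.69) and 2.94 points for ATAAA (0.41 to 5.47), so both turned in sign.

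Of the other strings, 3 had intervals below 0 and 1 above. The SOX string ACAAAG was in 12.5% against 16.3% of not regained domains (difference −3.78 points, −5.74 to −1.58) and in 11.5% of all EB domains. It was in 11.3% of regained domains held by 1 line, 15.2% by 2 and 25.6% (14.9 to 40.2) of the 43 held by 3. The POU string ATGCAA, part of the site of OCT4, was in 8.36 against 10.8% (−2.43 points, −4.04 to −0.56) and 6.71% of all, and the full octamer ATGCAAAT, which holds it, differed by −0.75 points (−1.64 to 0.43). At equal GC content the differences were −1.79 points for ACAAAG (−3.85 to 0.27) and −0.68 points for ATGCAA (−2.40 to 1.03), and both intervals included 0. The nuclear receptor string AGGTCA, part of the site of ESRRB, was in 10.6 against 9.33% (1.31 points, −0.47 to 3.34) and 7.62% of all. The AP-1 string TGANTCA was in 3.73 against 5.59% (−1.87 points, −2.93 to −0.51) and 3.56% of all. The string of the insulator protein CTCF was the 1 of the 18 whose interval lay above 0, in 4.82 against 2.71% (2.11 points, 0.95 to 3.57) and 5.39% of all. Against domains held by no Dox alone the intervals of all 18 included 0, with differences of −0.09 points for SOX (−3.63 to 3.18) and 0.49 points for CTCF (−1.83 to 2.49).

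Shares with Hox cores were compared between single-line domains. ATAAA was in 28.6% (23.1 to 34.9) of the 220 domains of iHoxc9 alone, in 101 of the 530 of iHoxc6 alone (interval 15.9 to 22.6%) and in 22 of the 116 of iHoxc10 alone (12.9 to 27.0%). The domains of iHoxc9 alone exceeded those of iHoxc6 alone by 9.58 points (2.97 to 16.6), those of no Dox alone by 8.60 points (2.01 to 15.6) and not regained domains by 6.42 points (0.80 to 12.8). The difference from iHoxc10 alone was 9.67 points (−0.14 to 18.4), an interval that included 0. The longer string CATAAA, which holds ATAAA, was in 5.45% of iHoxc9 alone and 5.85% of iHoxc6 alone, a difference of −0.39 points (−3.68 to 3.80). Among domains that iHoxc9 shared, ATAAA was in 18.6% of 102 with iHoxc6, 32.4% of 34 with iHoxc10 and 27.9% of 43 with both. CATAAA was in 5.88% of those with iHoxc6, 20.6% (10.3 to 36.8) with iHoxc10 and 14.0% (6.56 to 27.3) with both. It was in 5.39% of not regained domains, and no difference was computed for the shared domains. In 150 bp around the middle of the induced domain, ATAAA was in 30.9% of iHoxc9 alone and 16.6% of iHoxc6 alone. With iHoxc6 alone weighted to the same GC content the difference was 5.28 points (−1.77 to 12.3), and the interval then included 0.

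TAAT was in 29.3% (21.8 to 38.2) of domains of iHoxc10 alone, below 42.1% (37.9 to 46.3) of iHoxc6 alone by 12.8 points (−21.4 to −3.01 as iHoxc10 minus iHoxc6) and below 45.5% of iHoxc9 alone. Around the middle of the induced domain the shares were 35.3% and 36.4%, with a difference of −1.07 points (−10.2 to 8.81). Of 54 intervals for 3 pairs of single lines and 18 strings, 3 excluded 0, with no correction for their number. Intervals at 95% exclude 0 in about this share of comparisons even where the sets do not differ. Among domains also held by no Dox, which are no regained domains, ATAAA was in 21.6% (14.3 to 31.3) of 88 held by no Dox and iHoxc9 and 21.3% (16.9 to 26.4) of 287 held by no Dox and iHoxc6.

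**Figure D5:**
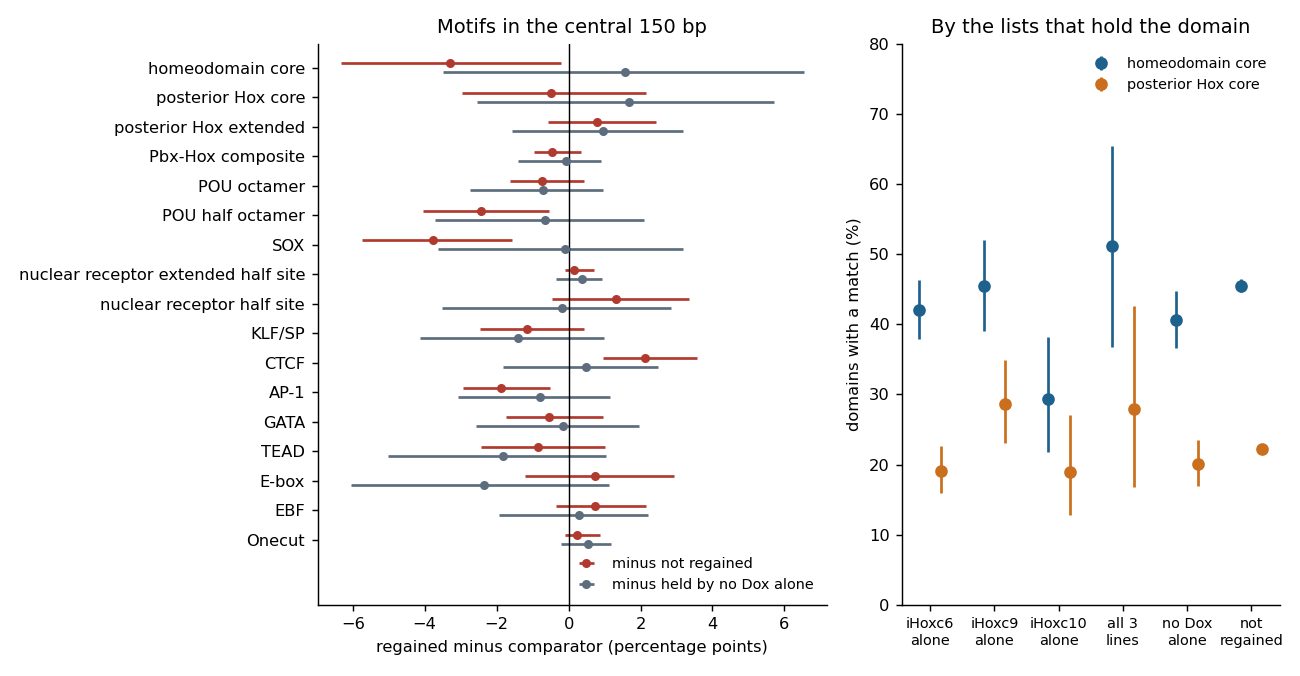
Left, difference in the share of EB domains with each string in the central 150 bp (horizontal axis, percentage points, 95% Newcombe intervals) between regained domains and 2 comparators, leaving out the 1 string with no match in the sets compared. Right, shares with TAAT (blue) and ATAAA (orange) by the lists that held the domain (vertical axis, percent, 95% Wilson intervals), with ATAAA at 28.6% in iHoxc9 alone, above iHoxc6 alone and iHoxc10 alone. Domains held by exactly 2 lines are not drawn.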

How the data were processed

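ATAC-seq read pairs were mapped by the authors to mm10 with Bowtie2 2.2.2, and accessible domains were called with DomainFinder. Picard 2.8.2 stands in the submitters' processing notes. The deposited values are start and end positions in bp, 1 list per group made from both replicates, with no count, height or p-value. No score was used. The base of the starts is not stated in the sources used here, and they were read as in BED and printed counting from 1.

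Unplaced and mitochondrial sequences were left out, and lists were not merged. The minimum width was 150 bp and the minimum overlap 1 bp. TSS and exons came from GENCODE M21 protein-coding genes and bases from RefSeq GRCm38.p6, whose lower case marks masked repeats. Each gene had 1 TSS, the start of its annotated record, so promoters and distances leave out other start sites. Exon, intron and intergenic place was taken at the domain's middle. A domain was called near a gene where that gene's TSS was the nearest to its middle, whatever the distance. A domain counted as at a promoter where its nearest edge lay within 1 kb of a TSS, or where it held the TSS. Wider domains meet this rule more easily, and the median width was 269 bp in regained and 248 bp in not regained domains. The part of width in the promoter difference was not tested. Shares have 95% Wilson and differences 95% Newcombe intervals. No test across samples was possible. The members, gene lists, strings and comparisons were chosen with earlier results of these data known. Named sites were the widest and best covered per class, genes of the lists, and genes with most members. The overlap, motif and interval code was tested on simulated data. Python 3.11.15, NumPy 2.4.6, SciPy 1.17.1, pandas 2.3.3, pysam 0.24.0, samtools 1.23.1 and Matplotlib 3.10.9 were used. The count for the list of Hox cofactor genes is not reported here.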

Additional observations from a re-analysis of the deposited data

Results flagged for a closer look

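Of 54 intervals between single-line domains, 3 excluded 0, and 2 of these, for 2 strings, were picked for a closer look. Both compared a line with iHoxc6 alone, and no correction was made for the number of intervals. Excluding 0 was not the only ground for the choice, since the interval left out also excluded 0. It was for TAAT, which was 16.1 points more frequent in domains of iHoxc9 alone than in those of iHoxc10 alone. That difference was the largest of the 3 in size and was not examined further. ATAAA was 9.58 points more frequent in domains of iHoxc9 alone than in those of iHoxc6 alone. The difference was 14.3 points around the middle of the induced domain and 10.4 points away from promoters, and 5.28 points (−1.77 to 12.3) at equal GC content, where the interval included 0. The longer CATAAA differed by −0.39 points (−3.68 to 3.80) between the same domains. TAAT differed by −12.8 points between domains of iHoxc10 alone and iHoxc6 alone. That difference was −12.3 points (−21.6 to −1.90) away from promoters and −8.82 points (−17.9 to 0.22) at equal GC content, where it kept its sign and the interval included 0. Around the middle of the induced domain it was −1.07 points. The alternatives were chosen after seeing the data, and causes were not tested. No sample was examined for standing apart, since the lists give no value per sample.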

How the results depend on the processing

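No paired analysis was possible because each list pools both replicates, and no replicate was left out for the same reason. Counts of regained domains are given as all, then held by iHoxc6, iHoxc9, iHoxc10 and all 3 lines. They were 1727, 1143, 646, 407 and 77 with a minimum width of 100 bp, and 463, 306, 177, 111 and 25 with 300 bp. They were 196, 111, 66, 44 and 1 where an induced list had to cover at least 50% of the EB domain, and 532, 305, 169, 159 and 18 with induced domains of at least 50 bp only. They were 2095, 1543, 930, 722 and 296 where absence from day 2 alone was asked. With all 6 lists, controls included, at equal length they were 1390, 694, 654, 554 and 118. Counts stayed within 1.5 times with a minimum width of 200 bp and with no control domain within 500 bp.

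The promoter difference was 2.71 points (−0.04 to 7.10) with 50% overlap and 1.33 points against no Dox alone, and the masked difference −0.39 points against no Dox alone. Of the 18 strings, 1 interval lay above and 4 below 0 as reported. These counts were 3 and 7 for matches per kb over the whole domain, 2 and 3 away from promoters, 1 and 0 with 50% overlap, 3 and 2 at equal GC content, and 0 and 0 against no Dox alone. Signs turned for TAAT (2.65 at equal GC content, 1.57 against no Dox alone) and ATAAA (2.94 at equal GC content). The SOX-POU core TGTNATGCA, added after seeing the data, differed by −0.71 points and by 0.18 against no Dox alone. Comparisons with no Dox alone and at equal GC content were chosen after seeing the data, and the cause of these changes was not tested. Read depth is unknown, so a domain missing from a list may lie below detection.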
